A study of Mus musculus with 11 samples.

Results

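The 558 regions described here are SA2 peaks of mouse embryonic fibroblasts that lack SA1, at positions where neither SA1 nor SA2 had a peak in wild-type fibroblasts. They make up 8.79% of the 6352 SA2 peaks of SA1-null cells. They were chosen by overlap, as intervals of the SA1-null SA2 list that share no base with an interval of the wild-type SA1 list (26602 peaks) or of the wild-type SA2 list (7741 peaks). The presence of an SA1-null SA2 peak and the absence of both wild-type SA peaks are therefore the rule itself and not a finding. Everything said below about SMC1, SMC3, input DNA and the SA1 antibody in SA1-null cells comes from lists that the rule did not use. However, the input of the SA libraries was the control named for each list of the rule, so its intervals are not independent of the choice.

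The cells were fibroblasts (MEFs) of SA1-null and of wild-type embryos at stage E12.5, on a mixed C57BL/6 x 129 Sv background, untreated and cultured with 20% serum. Chromatin immunoprecipitation with sequencing (ChIP-seq) was done against SA2, SMC1, SMC3 and SA1 in both genotypes. Both input libraries were DNA pooled over the genotypes. Each peak list stands for 1 library, except that SMC1 in SA1-null cells took 2 libraries together, so replicate spread is unknown and the genotypes could not be tested against each other. The null allele of SA1, the embryos' sex and the number of embryos behind each culture are missing from the labels. The lists hold positions only, with no height or score, and sequencing depth is unknown.

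Cohesin is a ring of SMC1, SMC3 and a kleisin subunit that encloses DNA, holds sister chromatids together and extrudes chromatin loops. In somatic cells each ring binds one of a pair of related proteins, SA1 or SA2 (STAG1 or STAG2). On chromosome arms cohesin gathers mainly at sites bound by the insulator protein CTCF, and an SA protein that is part of the complex is found together with the ring. The SMC1 and SMC3 lists are the readout of the ring that the choice of the 558 positions did not use. The choice still bears on them, because it leaves out every position with a wild-type SA peak, and ring peaks are common there. Part of any difference in ring peaks between the new and the other SA2 peaks therefore follows from the rule.

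At most of the new SA2 peaks no ring subunit was called, which does not show that the protein was absent. Of the 558 peaks, 495 (88.7%, 95% Wilson interval 85.8 to 91.1%) overlapped no SMC1 and no SMC3 peak of either genotype. Among all 6352 SA1-null SA2 peaks this share was 10.5%, and among the 5794 SA2 peaks that did have a wild-type SA partner it was 2.99% (interval 2.58 to 3.46%). In the SA1-null SMC1 list, with 47003 peaks, a partner was found for 46 of the new peaks (8.24%, interval 6.24 to 10.8%), against 95.9% of the other SA2 peaks and 88.2% of the whole SA2 list. The difference between new and other peaks was -87.6 percentage points (95% Newcombe interval -89.7 to -85.0). Such intervals reflect only how many peaks were counted, since peaks of 1 library are not replicates.

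The other ring lists gave the same picture. SMC3 of SA1-null cells, with 34802 peaks, was present at 39 of the new peaks (6.99%, interval 5.16 to 9.41%), against 94.5% of the other SA2 peaks and 86.8% of the whole list. SMC1 of wild-type cells was present at 45 (8.07%, interval 6.08 to 10.6%), against 91.8% of the others and 84.4% of the whole list. SMC3 of wild-type cells was present at 37 (6.63%, interval 4.85 to 9.01%), against 81.7% of the others and 75.1% of the whole list. Thus the 4 ring lists, which differ in length from 15564 to 47003 peaks, each held between 6.63% and 8.24% of the new positions.

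**Figure D1:**
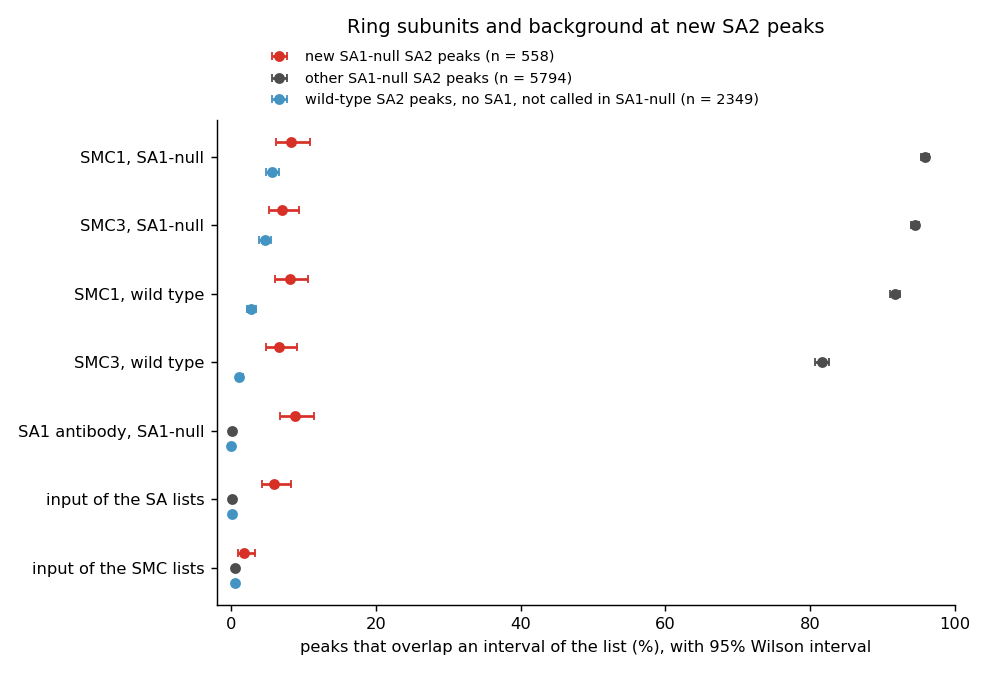
Share of peaks (x axis, percent, with 95% Wilson intervals) that overlap an interval of each list (y axis) for the 558 new SA1-null SA2 peaks, the 5794 other SA1-null SA2 peaks, and 2349 wild-type SA2 peaks that have neither a wild-type SA1 nor an SA1-null SA2 peak. In the 4 SMC lists the new peaks lie between 6.63% and 8.24%, above the wild-type SA2 peaks without SA1 (1.11% to 5.62%) and far below the other SA1-null SA2 peaks.

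The share with SMC1 was lower among new than among other SA2 peaks in each class of peak width. The new SA2 peaks had a median width of 446 bp (quartiles 400 and 537 bp), against 535 bp (452 and 627 bp) for the other SA1-null SA2 peaks, and 415 of the 558 (74.4%) were no wider than the median of the others. Among the narrowest 25% of all SA1-null SA2 peaks, up to 444 bp, an SA1-null SMC1 peak was present at 12 of 268 new peaks (4.48%, interval 2.58 to 7.66%) and at 1261 of 1337 other peaks (94.3%, interval 92.9 to 95.4%). Among the widest 25%, from 625 bp, it was present at 15 of 80 new peaks (18.8%, interval 11.7 to 28.7%) and at 1446 of 1493 other peaks (96.9%). Of those 80 new peaks 38 (47.5%) were in an input list or in the SA1-null SA1 list, and without such peaks the shares were 15 of 42 new (35.7%, interval 23.0 to 50.8%) and 1445 of 1479 other peaks (97.7%). The width classes were chosen after the data were seen. The deposited name of the SA2 list gives FDR 10, taken as a percentage of false peaks, which over 6352 peaks allows 635 of them, more than the 558 at new positions. Whether the new peaks are such calls was not tested.

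A ring peak of some list was present at 63 of the 558 positions (11.3%, interval 8.93 to 14.2%), and these fell into 10 combinations of the 4 lists. The most frequent combination was the complete one, with SMC1 and SMC3 in both genotypes, at 26 positions (4.66%, interval 3.20 to 6.74%), against 80.7% of the other and 74.0% of all SA1-null SA2 peaks. Both subunits in SA1-null cells together with SMC1 alone in wild-type cells were found at 6 positions. Both subunits called in SA1-null cells and neither called in wild-type cells were found at 6 positions (1.08%, interval 0.494 to 2.33%). This combination was found at 160 (2.76%) of the other and 166 (2.61%) of all SA1-null SA2 peaks. In all, 38 of the 558 new peaks lay on both SMC1 and SMC3 of SA1-null cells, and at 32 of these 38 (84.2%, interval 69.6 to 92.6%) a ring subunit had a wild-type peak too. Among the other SA2 peaks on both SA1-null lists this held for 97.1%, and among all of them for 97.0%. At the 32 new positions the SA2 peak was new relative to the wild-type SA lists, but a ring subunit was called there in wild-type cells. At 26 of them both subunits were called, and at 6 SMC1 alone.

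**Figure D2:**
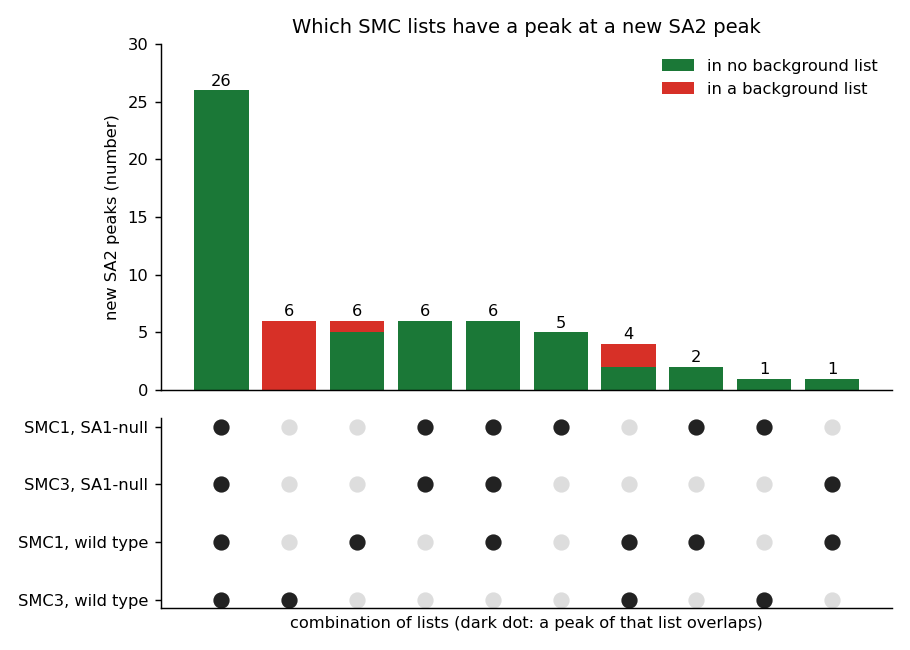
Number of new SA2 peaks (y axis) for each combination of SMC lists with an overlapping peak (dark dots), for the 63 new peaks that overlap some SMC peak; red marks peaks that also overlap an input interval or an SA1-null SA1 interval. The complete combination holds 26 peaks, none of them in such a list, while all 6 peaks with wild-type SMC3 alone are in one.

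The 26 positions with SMC1 and SMC3 in both genotypes carried SA2 peaks of 358 to 813 bp, with a median of 631.5 bp, all within the range of the other SA1-null SA2 peaks. Of the 26, 9 were narrower than the median of the others (535 bp). None overlapped an input interval or an SA1-null SA1 interval. By SA2 width the first was on chromosome 1 from 92869639 to 92870451 (mm9), with an SA2 peak of 813 bp. Its ring peaks were 868 bp for SMC1 and 892 bp for SMC3 in SA1-null cells, and 763 and 606 bp in wild-type cells. The second was on chromosome 14 from 15696030 to 15696814 (785 bp), and the third on chromosome 15 from 101895959 to 101896699 (741 bp). Next came chromosome 11 from 78212996 to 78213721 (726 bp), then chromosome 10 from 15019730 to 15020440 (711 bp). The nearest wild-type SA1 peak was between 1.74 kb (chromosome 11) and 91.3 kb (chromosome 10) from these 5.

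The SMC3 peaks at the 26 complete positions were wider in SA1-null than in wild-type cells, as they were at other SA2 positions. Their median width was 814 bp in SA1-null cells and 639.5 bp in wild-type cells, and the SA1-null peak was the wider one at 25 of 26 positions. The same held for 4114 of the 4673 other SA2 peaks with a complete ring (88.0%), with medians of 746 and 609 bp. For SMC1 the medians at the 26 positions were 735.5 bp in SA1-null cells and 727.5 bp in wild-type cells, and the SA1-null peak was the wider one at 10 of 26, against 49.8% at the other SA2 peaks. Widths were compared between lists whose median widths differ (652 and 563 bp for SMC3, 535 and 579 bp for SMC1), and depth was not available for any of them.

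The 6 positions where SA2, SMC1 and SMC3 were all called in SA1-null cells and no SA or ring subunit was called in wild-type cells form a small class. They carried narrow SA2 peaks, between 312 and 439 bp. The widest was on chromosome 8 from 129310080 to 129310518, where the SA1-null SMC1 and SMC3 peaks were 457 and 505 bp wide. It was followed by chromosome 6 from 84495580 to 84496007, chromosome 14 from 41605024 to 41605419, chromosome 1 from 133897070 to 133897430 and chromosome 16 from 60538107 to 60538426. At the sixth, on chromosome 12 from 101845054 to 101845365, the nearest wild-type SA1 peak was 1962 bp away, and at the one on chromosome 16 it was 854.5 kb away. The SA1-null SMC lists were longer than the wild-type lists, with 47003 against 24000 peaks for SMC1 and 34802 against 15564 for SMC3. With the SA1-null lists shortened by width to wild-type length, none of the 558 was left in this class. However, such a cut drops the narrower ring peaks. At the 5 widest of these positions the SA1-null SMC1 peaks measured 301 to 521 bp, below the median of 535 bp of that list. The part of list length in this class was therefore not tested.

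The centres of the ring peaks that overlapped a new SA2 peak were compared with those at the other SA2 peaks. The centres of the SA1-null SMC1 peak and of the new SA2 peak were a median of 56 bp apart, and 30 of 46 pairs (65.2%) were within 100 bp. At the other SA2 peaks the median was 52 bp and 78.8% were within 100 bp. For SMC3 of SA1-null cells the median distance was 41.5 bp at the new peaks and 51 bp at the others, with 79.5% and 80.3% within 100 bp. The wild-type ring peaks were within 100 bp at 73.3% of new and 82.4% of other SA2 peaks for SMC1, and at 62.2% of new and 83.7% of other SA2 peaks for SMC3. Among new peaks in no input list and not in the SA1-null SA1 list these shares were 73.8% for SMC1 and 72.4% (21 of 29) for SMC3. The SMC1 peaks at new SA2 positions had a median width of 599.5 bp, at the 64.4th percentile of the SA1-null SMC1 list, and the SMC3 peaks a median of 785 bp, at the 79.6th percentile of theirs. Seen from the ring, the new SA2 peaks concerned 0.0979% of the SA1-null SMC1 peaks and 0.112% of the SA1-null SMC3 peaks.

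A further set of new SA2 peaks lay where enrichment was also called without a cohesin antigen. Intervals of the input list of the SA libraries, of the input list of the SMC libraries or of the SA1 immunoprecipitation from SA1-null cells, which has no target protein, are called background lists here. They hold 436, 417 and 177 intervals. Of the new peaks, 55 (9.86%, interval 7.65 to 12.6%) overlapped one of them, against 39 of 5794 other SA2 peaks (0.673%, interval 0.493 to 0.919%) and 1.48% of the whole SA2 list. The SA1-null SA1 list accounted for 49 of the 55, the input of the SA libraries for 33 and the input of the SMC libraries for 10. In turn, 53 of the 177 SA1-null SA1 intervals overlapped a new SA2 peak, and 6 overlapped one of the other SA2 peaks. SA2 of SA1-null cells and SA1 of SA1-null cells were called against different inputs.

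The widest new SA2 peaks were nearly all in a background list. No other SA1-null SA2 peak was wider than 1177 bp, while 20 new ones were, and 18 of these 20 overlapped a background interval. None of the 20 overlapped an SA1-null SMC1 or SMC3 peak. The widest of all, on chromosome 3 from 25446336 to 25451643, measured 5308 bp. It belonged to 4 neighbouring peaks between 25427182 and 25451643, of 3634 to 5308 bp, all of them in the SA1-null SA1 list and none in an input list. On chromosome 4 a peak of 4391 bp from 145036240 to 145040630 was in the SA1-null SA1 list and in both input lists. On chromosome 2 a peak of 4180 bp from 27354364 to 27358543 overlapped SA1-null SA1, the input of the SA libraries and a wild-type SMC3 peak of 723 bp.

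**Figure D3:**
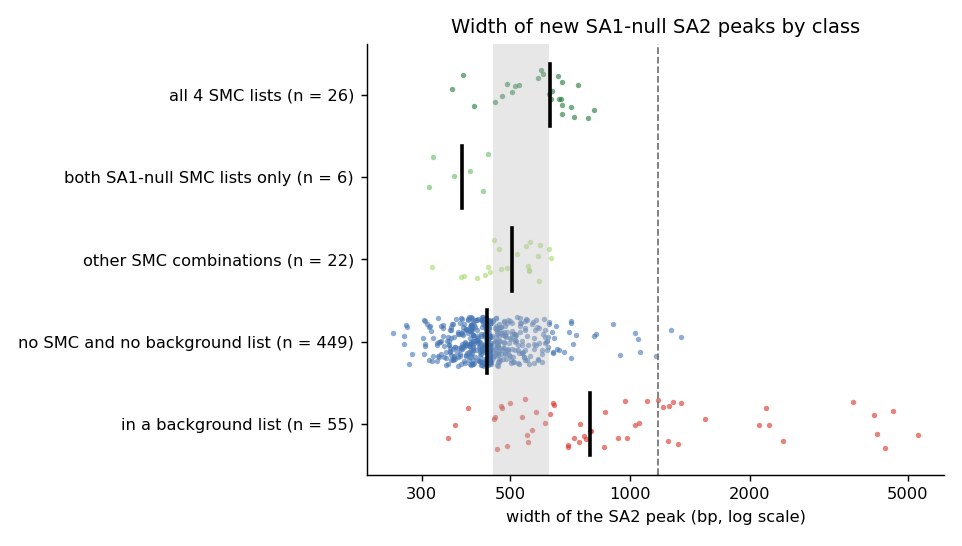
Width of each of the 558 new SA2 peaks (x axis, bp, log scale) by class (y axis), where peaks in a background list are kept apart from the ring classes; black bars are medians. The grey band spans the quartiles of the other SA1-null SA2 peaks (452 to 627 bp) and the dashed line is their maximum of 1177 bp; 18 of the 20 peaks beyond it are in a background list.

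Background intervals were found at 9 of the 63 new peaks with a ring peak (14.3%) and at 46 of the 495 without one (9.29%). Among all SA1-null SA2 peaks these shares were 12 of 5684 (0.211%) and 82 of 668 (12.3%). Among the other SA1-null SA2 peaks they were 3 of 5621 (0.0534%) and 36 of 173 (20.8%). Without a ring peak, new peaks were thus in a background list less often than the others. None of the 47 new peaks with an SA1-null SMC1 or SMC3 peak overlapped a background interval. Of the 16 new peaks with a ring peak in wild-type cells only, 9 did. Among these, all 6 peaks with wild-type SMC3 alone were in a background list. They included the peak on chromosome 2 given above. Chromosome X held another from 121306883 to 121309121 (2239 bp) and a further one from 51378920 to 51381115 (2196 bp). With wild-type SMC1 and SMC3 both present and no SA1-null ring peak, the peak on chromosome 5 from 80242196 to 80243743 (1548 bp) and one on chromosome X from 120777630 to 120778910 (1281 bp) were in the SA1-null SA1 list and in the input of the SA libraries.

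Without the background intervals and without the positions that had a ring peak, 449 new SA2 peaks remained (80.5%, interval 77.0 to 83.5%). Among the other SA1-null SA2 peaks this class held 137 (2.37%), and among all 6352 it held 586 (9.2%). The 449 were narrow and much alike, with a median width of 438 bp and quartiles of 396 and 489 bp, against 535 bp (452 and 627 bp) for the other SA2 peaks. The widest of them, picked after the values were seen, lay on chromosome 4 from 145021347 to 145022690 (1344 bp), from 145153583 to 145154851 (1269 bp) and from 146870825 to 146871989 (1165 bp). The nearest SA1-null SA2 peak to the first of these was the new peak of 4391 bp named above, 13549 bp away, which is in background lists. The second belonged to a group of 3 new peaks between 145153583 and 145173709, of which 1 was in a background list. That stretch held 2 SA1-null SA1 intervals and 1 interval of the input of the SA libraries.

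Few of these 449 peaks lay close to a ring peak. An overlap with a ring peak was excluded by the choice of this class. The gap to the nearest SA1-null SMC1 peak had a median of 41.0 kb (quartiles 11.2 and 192.4 kb), and 11 of the 449 had such a peak within 1 kb. A set chosen in nearly the same way is the 2198 wild-type SA2 peaks with no wild-type SA1, no SA1-null SA2 and no SMC peak. Unlike the 449, it keeps peaks in a background list, without which 2186 remain. The median gap of the 2198 was 24.3 kb, and 30.4% lay within 10 kb, against 22.5% of the 449. To the nearest SA1-null SMC3 peak the median gap was 52.5 kb, and 9 were within 1 kb. SMC1 peaks of SA1-null cells in the 100 kb on either side were counted without those that overlap the SA2 peak itself. Of the 558 new peaks 204 (36.6%) had none, against 20.9% of the wild-type SA2 peaks that have neither a wild-type SA1 nor an SA1-null SA2 peak, and 5.73% of the other SA1-null SA2 peaks. The medians were 2 SMC1 peaks around the new, 3 around those wild-type and 5 around the other SA1-null SA2 peaks.

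**Figure D4:**
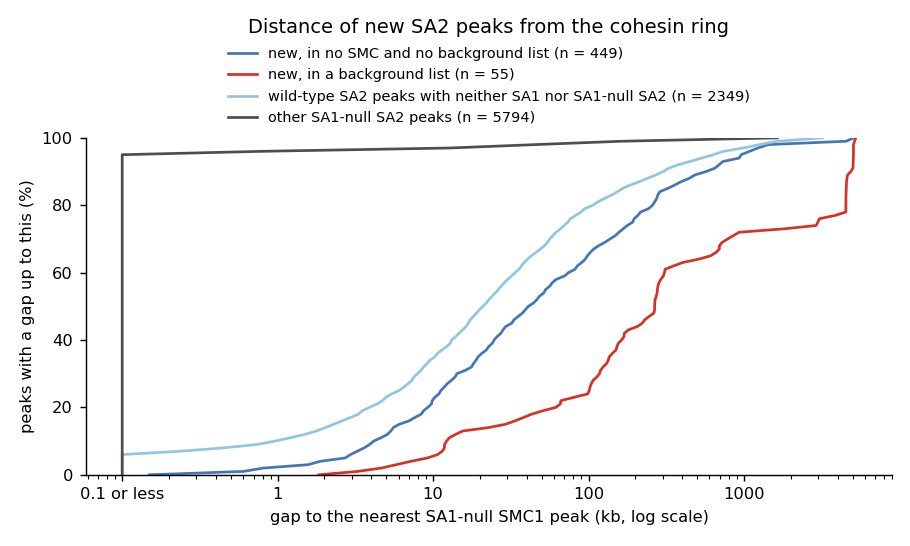
Cumulative share of peaks (y axis, percent) by gap to the nearest SA1-null SMC1 peak (x axis, kb, log scale, with gaps of 0.1 kb or less drawn at 0.1). The 449 new peaks in no SMC and no background list have a median gap of 41.0 kb, the 55 in a background list 266.3 kb and the wild-type SA2 peaks without SA1 20.9 kb, while 95.9% of the other SA1-null SA2 peaks overlap one. Overlap is excluded by definition for the 449 only, and without peaks in an SMC list the wild-type SA2 peaks have a median of 24.3 kb.

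A like set of peaks in wild-type cells was larger, and a smaller share of it had ring peaks in each of the 4 SMC lists. It consists of the 2349 wild-type SA2 peaks with neither a wild-type SA1 peak nor an SA1-null SA2 peak, and is the mirror image of the new set.  For wild-type SMC1 the shares were 8.07% and 2.73%, a difference of 5.34 percentage points (Newcombe interval 3.22 to 7.96). For wild-type SMC3 they were 6.63% and 1.11%, a difference of 5.52 points (3.67 to 7.93). For SA1-null SMC1 they were 8.24% and 5.62%, a difference of 2.62 points (0.380 to 5.34), and for SA1-null SMC3 6.99% and 4.60%, a difference of 2.39 points (0.338 to 4.94). For either of SMC1 and SMC3 in SA1-null cells the shares were 8.42% and 6.39%, a difference of 2.04 points (-0.253 to 4.79). For both SA1-null subunits without a wild-type one they were 1.08% and 1.45%, a difference of -0.372 points (-1.19 to 0.944). These intervals cover only the counting of peaks. Each SA2 list is 1 library, so the differences are descriptions and no test between the genotypes. Background lists held 9.86% of the new peaks and 0.511% of the mirror set, and the widest mirror peak measured 971 bp.

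The distance of the new peaks from the wild-type SA peaks follows in part from the rule and is given as a description. The nearest wild-type SA1 peak was a median of 53.0 kb away (quartiles 18.2 and 150.1 kb), and the nearest wild-type SA2 peak 159.1 kb. Close misses were few. One new peak lay 45 bp from a wild-type SA peak, 8 lay closer than 1000 bp, and 2 of these 8 had an SA1-null SMC1 peak. Just on the other side of the rule, 2 SA1-null SA2 peaks overlapped a wild-type SA peak by 52 and 73 bp, and both carried SA1-null SMC1 and SMC3 peaks.

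New SA2 peaks were found on all 19 autosomes and on chromosome X. On the autosomes they made up 517 of 6260 SA1-null SA2 peaks (8.26%), from 4.38% on chromosome 11 to 12.3% on chromosome 14, with a mean of 8.35% ± 1.98 (SD over 19 autosomes). On chromosome X they made up 41 of 92 (44.6%, interval 34.8 to 54.7%). Of these 41, 30 were in a background list, against 25 of the 517 on autosomes. With background intervals left out, 11 of 62 SA1-null SA2 peaks on X were new (17.7%), above each of the 19 autosomes, of which chromosome 14 was highest (12.1%). No interval was computed for these shares. The 4 groups of new peaks on X described below held 9, 8, 5 and 4 peaks, with 7, 5, 3 and 2 in a background list. Most of the 11 remaining X peaks thus lay in groups that also held background intervals. The number of new peaks per Mb was 0.253 on X, within the autosomal range of 0.147 to 0.301. None of the 41 new peaks on X overlapped an SA1-null SMC1 or SMC3 peak. The part of the embryos' sex in the X values was not tested.

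**Figure D5:**
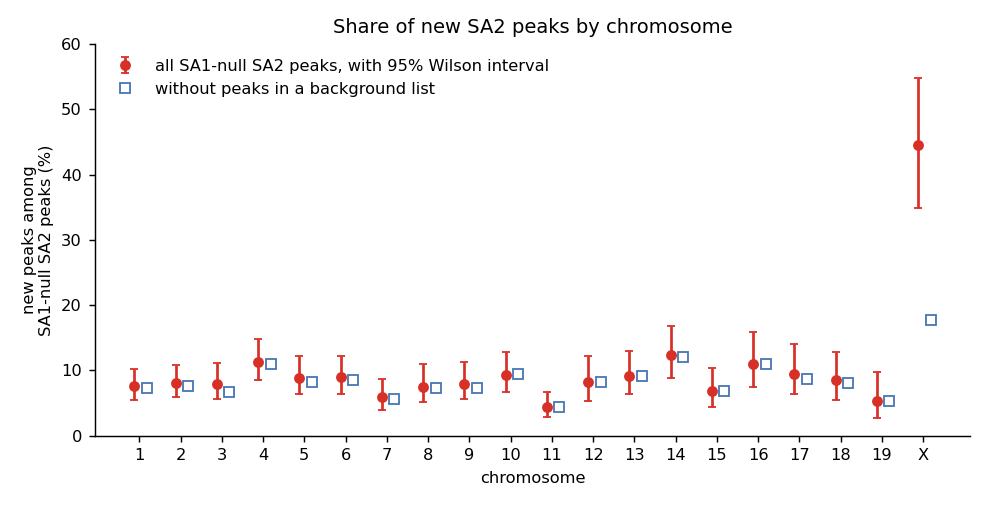
Share of SA1-null SA2 peaks that are new (y axis, percent) on each chromosome (x axis), with 95% Wilson intervals (filled circles) and after removal of peaks in a background list (open squares). Autosomes lie between 4.38% and 12.3%, while chromosome X stands at 44.6% with and 17.7% without background intervals.

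Most new peaks had no other new peak within 100 kb, and 7 of the 8 groups of 3 or more held background intervals. Other SA1-null SA2 peaks were not counted as neighbours here, and the share for the whole SA2 list was not computed. New peaks were sparse, with a median of 0.221 per Mb over the autosomes, so few such neighbours could occur unless new peaks clustered. When new peaks less than 100 kb apart were joined, 483 of the 558 (86.6%) had no such neighbour, and 8 groups of 3 or more held 39 peaks, 24 of them in a background list. Chromosome X held 4 of the 8 groups, with 26 peaks. The largest had 9 peaks between 121215068 and 121325343, where the SA1-null SA1 list held 20 intervals, and the next had 8 peaks between 53200014 and 53412860, where it held 12. On chromosome 4, 3 peaks between 146822354 and 146871989 formed the group without such an interval. No SA1-null SA2 peak with a wild-type partner lay inside any of the 8 groups.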

How the data were processed

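ChIP-seq interval lists of SA1, SA2, SMC1 and SMC3 and of input DNA were used as deposited. Each holds a chromosome, a start and an end, with no score. The submitters' processing notes name mm9 and CASAVA 1.7. The sources used here do not name the aligner or the peak caller. The deposited names give FDR 10 with no fold minimum, and name one input for SA2 of both genotypes and wild-type SA1, and another for SMC1, SMC3 and SA1-null SA1. Intervals were taken as BED and are printed counted from 1.

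Peaks were matched by an overlap of 1 bp. Shares carry 95% Wilson intervals and differences Newcombe intervals, which cover counting error only. Depth is unknown. The overlap code was tested on simulated data and against bedtools 2.31.1. Python 3.11.15, numpy 2.4.6, scipy 1.17.1 and pandas 2.3.3 were used. Peaks were sorted by SMC and background lists, and the 5 with the widest SA2 peak in each class were named. The sixth peak with a ring in SA1-null cells only and the widest peaks in no SMC and no background list were named after their values were seen. Genes and sequences were not analysed here, because no mm9 genome or annotation was at hand. The regions, comparison sets and classes were chosen with earlier results of these data known.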

Additional observations from a re-analysis of the deposited data

How the results depend on the processing

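Of 51 values recomputed for 8 results under 7 alternatives, 39 stayed within the counting interval of the reported value (within 1.5 times for the number of peaks) and 12 did not. All alternatives were planned. No value moved beyond these limits with overlap of 50% of the shorter interval or with merging of intervals closer than 1000 bp. The same held for a distance of 1000 bp from every wild-type SA peak and for removal of peaks in a background list. That removal leaves the share in such lists at 0 by construction. The number of new peaks was 562, 545, 550 and 503 in that order, so the members changed little and the values had little room to move. Among the widest 50% of SA1-null SA2 peaks, 149 were new, of which 16.8% had SA1-null SMC1, 14.1% SA1-null SMC3, 18.1% wild-type SMC1 and 17.4% wild-type SMC3, while 75.8% had no SMC peak, 30.2% were in a background list and 0% had a ring in SA1-null cells only. With SA1-null SMC lists at wild-type length by width, the shares with SA1-null SMC1 and SMC3 were 5.38% and 4.66%, and 0% had a ring in SA1-null cells only. Shortening by width drops the narrower ring peaks, such as those of that last class, so the 0% does not measure the part of list length. Without chromosome X, 4.84% were in a background list. Ranking used width because the lists hold no score. With 1 list per group no replicate could be left out, and no paired analysis was possible because each group has 1 list. Depth limits what an absent peak can mean: it is a position not called, and not one shown to lack the protein.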

Other observations

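A small set of SA1-null SA2 peaks without wild-type SA1 was not new, because wild-type cells had an SA2 peak there. It held 41 peaks, and 26 of them (63.4%, 95% Wilson interval 48.1 to 76.4%) had both SMC1 and SMC3 in SA1-null cells, against 38 of the 558 new peaks (6.81%). The complete ring in both genotypes was present at 25 of the 41. The input list of the SMC libraries had an interval at 9 of the 41 (22.0%), and the other background lists at none. SA2 peaks of SA1-null cells at wild-type SA1 positions without wild-type SA2, of which there were 2911, had both ring subunits in SA1-null cells in 91.9% of cases (interval 90.9 to 92.8%).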
